A study of Danio rerio with 9 samples.

Results

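The baseline transcriptome of the zebrafish embryo at 24 hours after fertilization was described from the 3 libraries labelled Control morpholino, out of 9 libraries in the series. Each was made from polyadenylated RNA of the whole body of Danio rerio embryos that had received a control morpholino, a synthetic antisense oligomer used as the handling control of a knockdown. The sources used here do not give the strain, the sequence and dose of that oligomer, the number of embryos in a library, or whether the libraries came from separate clutches. P-values below therefore rest only on the spread between these 3 samples, which may be technical. In the tests of gene pairs the spread of each pair was drawn toward that of all pairs tested. Embryos that received no morpholino were not analysed here, so an effect of the control morpholino itself cannot be told apart from the baseline. The treatment note counts 24 hours from the morpholino, whereas the design text counts them from fertilization.

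At this stage the body axis is segmented, the trunk muscle contracts, the heart begins to beat and primitive red cells have formed, while the yolk is still the only food and the digestive organs and photoreceptors have yet to differentiate. The outermost skin layer (periderm), the hatching gland and the yolk syncytial layer are transient or early tissues that already carry out specialised work. A whole-genome duplication in the teleost ancestor left many genes in a pair of copies, which zebrafish nomenclature marks with a final a or b. Such copies can divide the work of the ancestral gene between tissues or stages, and a whole-embryo library reports their sum over all tissues. In such a library a gene active in few cells and a gene weakly active in many cannot be told apart, nor can fewer cells of a type and less RNA per cell.

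Levels are given in TPM, a measure in which each gene's count is divided by the length of its transcript and the total is set to the same value in every library. The 3 libraries held 16834136, 17482536 and 17006113 counts in controls 1, 2 and 3. A count of 0 allows a level of up to 0.178, 0.172 and 0.176 CPM (counts scaled to the library total) in the 3 libraries, taking 3 counts as the limit, which covers counting error only.

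Control 2 stood apart from controls 1 and 3. Among the 9756 genes with at least 1 TPM in all 3 libraries, 9.66% differed by more than 2-fold between controls 2 and 1 and 23.2% between controls 2 and 3, against 0.185% between controls 1 and 3. For 93.3% of the 3789 genes with a mean of at least 10 TPM, the value of control 2 lay outside the interval between controls 1 and 3, whereas control 1 lay outside the other libraries for 23.2% and control 3 for 83.3%. The difference moved with transcript length: the median log2 difference of control 2 from the mean of controls 1 and 3 was 0.07 in the shortest of 10 equal length classes of the 9756 genes and between 0.79 and 0.83 in the 3 longest classes. The median level fell along the same classes, from 37.7 TPM in the shortest to 2.86 TPM in the longest, so length and level cannot be told apart here. The part of RNA quality, embryo age or library preparation in the difference was not tested. The main counts and the ribosomal share are also given without control 2. Many class shares and list medians are given over the 3 libraries only.

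The transcriptome was concentrated in few genes. Of 24614 genes in the table, 9756, or 39.6%, reached 1 TPM in all 3 libraries, and 9789 did so in controls 1 and 3 without control 2. Higher levels were reached by fewer genes, with 3234 at 10 TPM or more, 631 at 100 TPM or more and 145 at 1000 TPM or more in all 3. The median gene stood at 0.653 TPM, and 1442 genes (5.86%) had no count in any of the 3 libraries. Ranked by level, the highest 72 genes in control 2, and 60 and 56 genes in controls 1 and 3, held 50% of the TPM. On the scale of expected counts, which weighs long transcripts more, 207 genes in control 2 and 136 and 121 genes in controls 1 and 3 held 50%.

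Genes of the cytoplasmic ribosome took more than any other class. Their products assemble with ribosomal RNA into the large and small subunits that translate mRNA. The class was drawn up by gene symbol, so a ribosomal protein gene listed under another kind of name would not be counted in it. The 86 genes held 49.2% of the TPM in control 2, against 55.7% and 58.1% in controls 1 and 3 (54.3% ± 4.61, SD, n = 3), and 56.9% on average without control 2. The order of the libraries was the same in each subunit: the 48 large-subunit genes held 28.3% in control 2 and 31.5% and 32.3% in controls 1 and 3, and the 38 small-subunit genes held 20.9% in control 2 and 24.2% and 25.8% in controls 1 and 3. These transcripts are short, and on the scale of expected counts the same 86 genes held 21.4% in control 2 and 28.3% and 30.5% in controls 1 and 3.

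Members of the ribosome did not have equal levels in TPM. All but 6 of the 86 genes exceeded 1000 TPM in every library. Within these 80 genes the level ran over a 2.63-fold range, 3720 to 9783 TPM, between the 10th and 90th percentiles, and the highest was 13.4 times the lowest. At the low end rpl31 had 1929, 1697 and 1905 TPM in controls 1, 2 and 3. At the high end rps29, a small-subunit protein, had 25268, 22169 and 26503 TPM. On expected counts the order was reversed, with 51180, 39056 and 53279 for rpl31 and 32047, 26889 and 32794 for rps29. The order of these extremes therefore rests on the division by length. Of the 6 genes below 1000 TPM, rps8b and the gene listed as si:dkey-159f12.2, which RefSeq names rps11b, had no more than 2 counts in any library. The others were faub at 24.96, 30.9 and 28.4 TPM, rpl7l1 at 124, 153 and 105 TPM, rpl22l1 at 445, 449 and 368 TPM, and zgc:136826, named rps27l in RefSeq, at 765, 778 and 809 TPM. The letters l1 and l in these names mark ribosomal-protein-like genes.

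**Figure D1:**
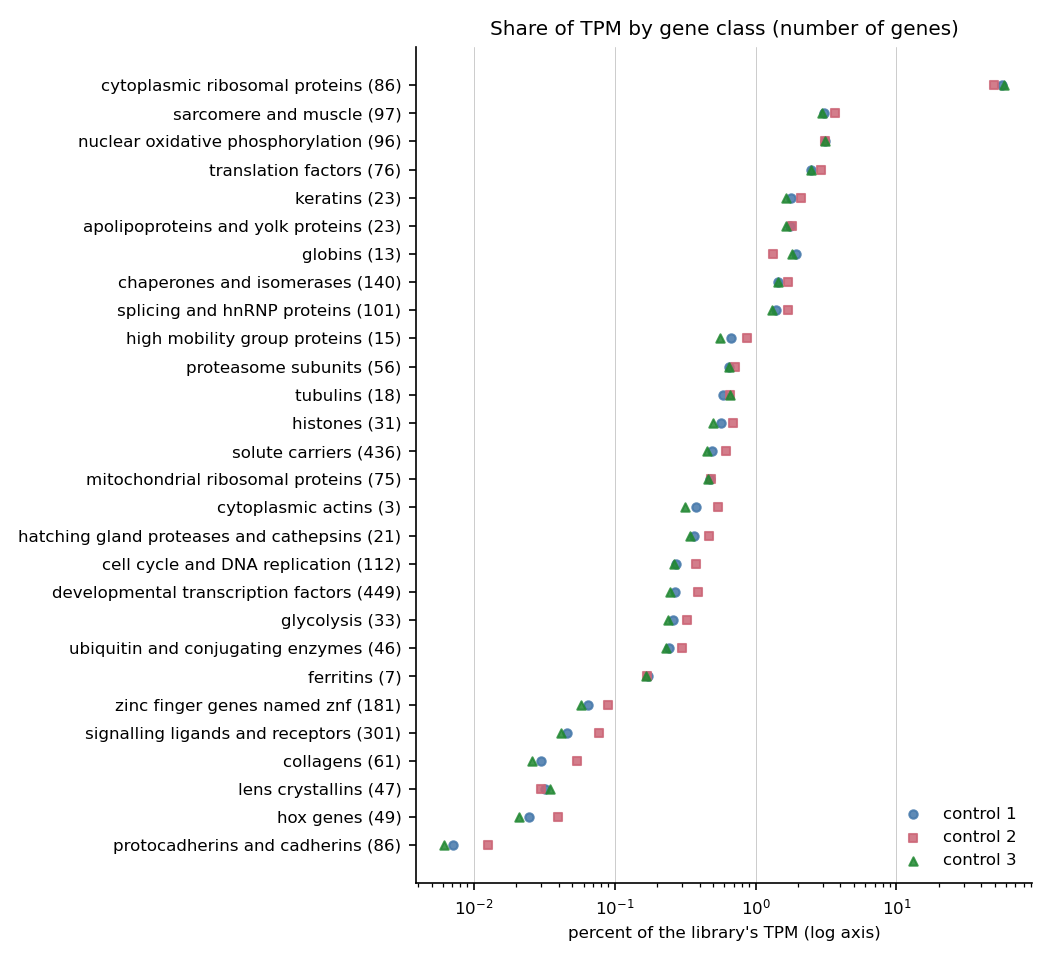
Share of each library's TPM (log axis, percent) held by 28 gene classes in controls 1, 2 and 3, with the number of genes of each class in brackets. Named and unnamed genes that fell in none of these classes are not drawn. Cytoplasmic ribosomal proteins lie near 50% and above in every library, no other named class passes 4%, and control 2 (squares) lies to the right of the other libraries in 23 of the 27 remaining classes.

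The next classes each held between 1% and 4%. Genes of the sarcomere and muscle, 97 in all, held 3.68% of the TPM in control 2 and 3.08% and 2.97% in controls 1 and 3 (3.24% ± 0.384). The 96 nuclear genes of oxidative phosphorylation, which make the respiratory chain and ATP synthase, held 3.09% in control 2 and 3.11% and 3.13% in controls 1 and 3. As a share of all TPM that class differed little between libraries, and 91 of its genes reached 1 TPM in all 3. Of the TPM outside the ribosomal proteins it held 6.08% in control 2, against 7.03% and 7.47% in controls 1 and 3. The class of translation factors held 2.62% ± 0.268, of which eef1a1l1, the elongation factor that brings aminoacyl-tRNA to the ribosome, made up 30.5%. The class also counts tpt1, whose name is not that of a translation factor, at 4748, 5019 and 4229 TPM in controls 1, 2 and 3. Keratins, the intermediate filaments of epithelia, held 1.84% ± 0.242, apolipoproteins and yolk proteins 1.73% ± 0.075, and globins 1.70% ± 0.326 (SD, n = 3 each).

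Classes that work in every cell but in small amounts of RNA followed. Chaperones and peptidyl-prolyl isomerases, which fold proteins, held 1.53% ± 0.141, and splicing and hnRNP proteins, which bind and process pre-mRNA, held 1.47% ± 0.205. Proteasome subunits held 0.669% ± 0.036, tubulins 0.635% ± 0.042 and mitochondrial ribosomal proteins 0.473% ± 0.012. All 75 mitochondrial ribosomal protein genes reached 1 TPM in all 3 libraries, with a median of 58.7 TPM, against 6221 TPM for the cytoplasmic ones.

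Regulatory classes took little. The 449 genes of developmental transcription factor families other than Hox held 0.302% ± 0.079 of the TPM, the 301 signalling ligands and receptors 0.055% ± 0.020 and the 49 hox genes 0.028% ± 0.010 (SD, n = 3 each). Without control 2 the mean shares of these classes were 0.257%, 0.043% and 0.023%. Even so, 252 of those 449 transcription factor genes (56.1%) reached 1 TPM in all 3 libraries, above the 39.6% of all genes, whereas 81 of the 301 signalling genes (26.9%) did. The highest of the transcription factor class was id1, an inhibitor of basic helix-loop-helix factors, at 435, 617 and 460 TPM in controls 1, 2 and 3. The highest genes of the signalling class were the Wnt receptor fzd7a at 47.9, 71.4 and 43.0 TPM and the chemokine cxcl12b at 23.6, 30.7 and 18.95 TPM. The class was drawn up by gene symbol and does not hold every ligand. The growth factor gene mdka, at 313, 441 and 281 TPM, lies outside it, so the class share leaves it out.

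How far control 2 differed depended on the denominator. With the share of all TPM, control 2 was the highest library in 23 of the 27 named classes other than the ribosomal proteins. With the share of the TPM that lies outside the ribosomal proteins it was the highest in 17. For muscle the ratio of control 2 to the mean of controls 1 and 3 was 1.22 on the first scale and 1.03 on the second, and for apolipoproteins and yolk proteins it was 1.06 and 0.900, which turns the direction. Collagens kept a ratio above 1 on both scales, 1.94 and 1.65, as did the hox genes, 1.73 and 1.47. Globins lay below 1 on both, 0.707 and 0.600.

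**Figure D2:**
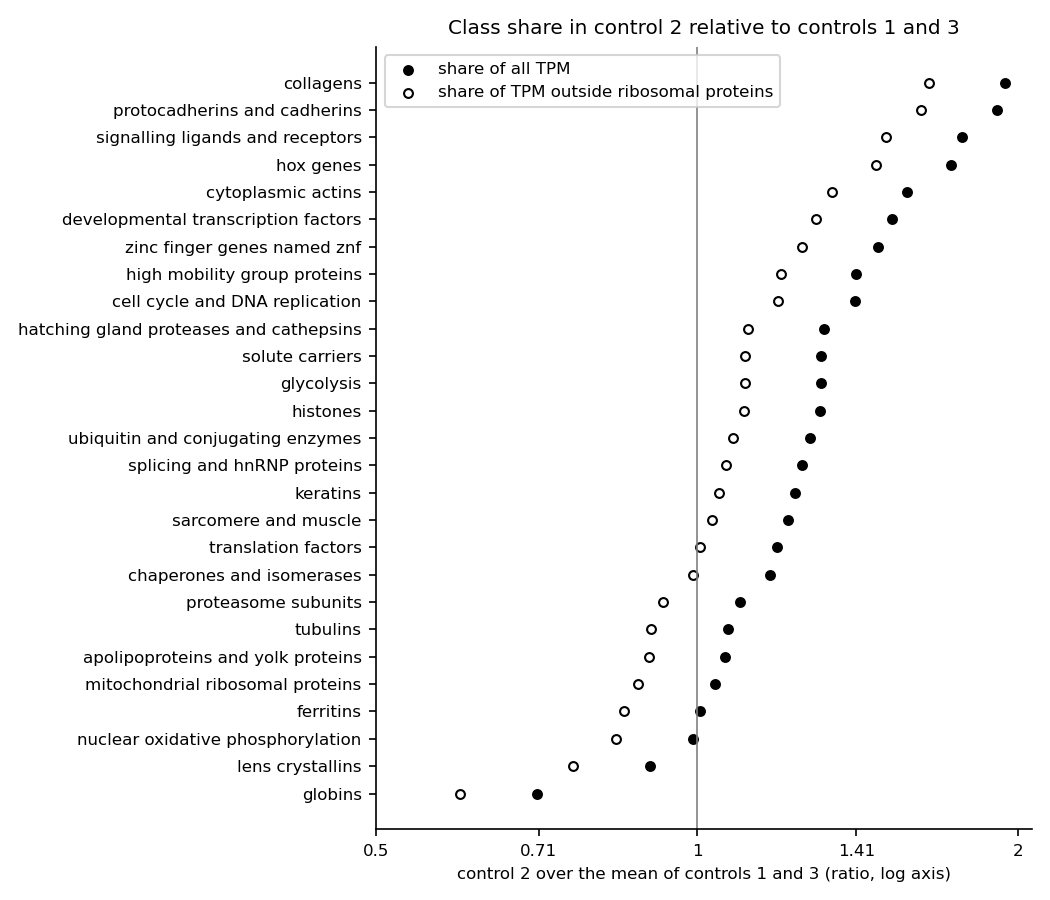
Share of each class in control 2 divided by the mean share in controls 1 and 3 (ratio, log axis), as a share of all TPM (filled) and of the TPM outside ribosomal proteins (open). Collagens (1.94 and 1.65) and globins (0.707 and 0.600) form the ends on both scales, and several classes between them change side with the scale.

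The highest single genes were mostly ribosomal. Of the 20 genes with the highest mean TPM, 18 were in the ribosomal protein class, and the 20 together held 22.2% of the TPM. After rps29 came rpl37 at 18306, 15338 and 20349 TPM and rps12 at 15656, 13343 and 17813 TPM in controls 1, 2 and 3. Pooled over the 3 libraries, the ranges of neighbours in rank overlapped in 18 of 19 cases, all but rps29 and rpl37. Such overlap does not show that the order changed within a library. For example, rpl37 exceeded rps12 in every library, whereas zgc:171772 exceeded rpl39 in controls 1 and 3 and not in control 2. The exceptions among the 20 were zgc:171772, a gene without a functional name in the table or in RefSeq, at 14681, 10923 and 13903 TPM, and eef1a1l1 at 6987, 9656 and 7368 TPM.

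Outside the ribosomal protein class the 25 highest genes held 11.7% of the TPM, and many are known genes of muscle, skin, yolk layer or blood. The largest part by class, 2.47% of the TPM, came from 3 unnamed predicted genes, zgc:171772, zgc:114188 and LOC568656. What these encode was not tested, so ribosomal proteins among them cannot be told apart from other genes. The highest muscle gene was actc1b, an alpha-actin of the sarcomere, at 6635, 7920 and 6439 TPM in controls 1, 2 and 3. Skin genes were the keratins cyt1 at 6132, 6123 and 5878 TPM, cyt1l at 5188, 6371 and 4850 TPM and krt4 at 3891, 5473 and 3129 TPM. The values of cyt1 lay close together, whereas krt4 was highest in control 2. Yolk layer genes were afp4, named for a type 4 antifreeze protein, at 6154, 5712 and 5690 TPM, and apoa1a, an apolipoprotein of high-density lipoprotein, at 5164, 4682 and 4824 TPM. The highest red cell gene was hbae1.3, an alpha-type globin, at 5559, 3832 and 5048 TPM, lowest in control 2. Genes of general use in this group were gnb2l1, which encodes the ribosome-bound scaffold RACK1, at 5299, 4128 and 5595 TPM, the prolyl isomerase ppiaa at 4199, 4211 and 4355 TPM, and slc25a5, a mitochondrial ADP/ATP exchanger, at 3017, 3706 and 2705 TPM.

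**Figure D3:**
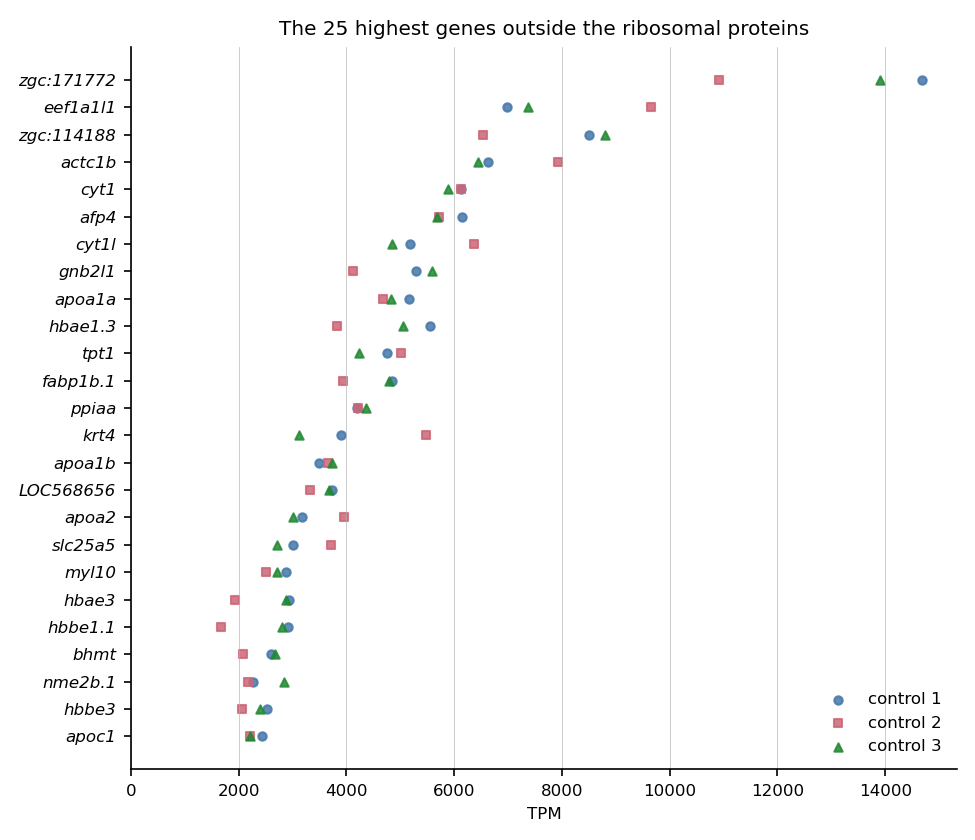
TPM in controls 1, 2 and 3 of the 25 genes with the highest mean level outside the cytoplasmic ribosomal protein class, ordered by mean. The unnamed genes zgc:171772, zgc:114188 and LOC568656 are among them. Genes of muscle (actc1b, myl10), skin (cyt1, cyt1l, krt4), yolk layer (afp4, apoa1a, apoa1b) and red cells (hbae1.3, hbae3, hbbe1.1, hbbe3) recur, and the globins lie lowest in control 2.

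Embryonic globins were present and the adult-named ones were at the edge of detection. The 10 genes named hbae or hbbe, in the table or in RefSeq, summed to 13341 TPM in control 2, against 19511 and 18241 TPM in controls 1 and 3, and 9 of them reached 1 TPM in all 3. Alpha-type genes summed to 10203, 6725 and 9588 TPM and beta-type genes to 9311, 6617 and 8654 TPM in controls 1, 2 and 3, so the sums of the chain types that pair in haemoglobin lay close together in each library. The 3 genes named hbaa or hbba summed to 2.77, 1.18 and 1.45 TPM. Members within a chain type are near copies of each other, and the counts are estimates that divide reads among such copies. The gene hbae1 was listed at 6.91, 0 and 16.5 TPM, and the part of this division of reads in its spread was not tested.

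Tissue genes were examined in 36 lists of markers, which named 860 genes of the table. Of these 860, 497 (57.8%) reached 1 TPM in all 3 libraries, against 39.6% of all genes, and their median was 2.38 TPM, against 0.653 TPM for all genes. In 30 lists both the share of detected members and the median level exceeded those of all genes, and in 6 lists neither did. The 6 were the lists of oocyte and maternal genes, pituitary and hypothalamic hormones, the haematopoietic stem cell programme, exocrine pancreas and digestive enzymes, the germ line, and photoreceptors. The 30 included lists of ectoderm, mesoderm and endoderm derivatives, and so did the 6. The members were written down as known tissue genes, so a share above that of all genes describes the choice of members as well as the embryo.

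**Figure D4:**
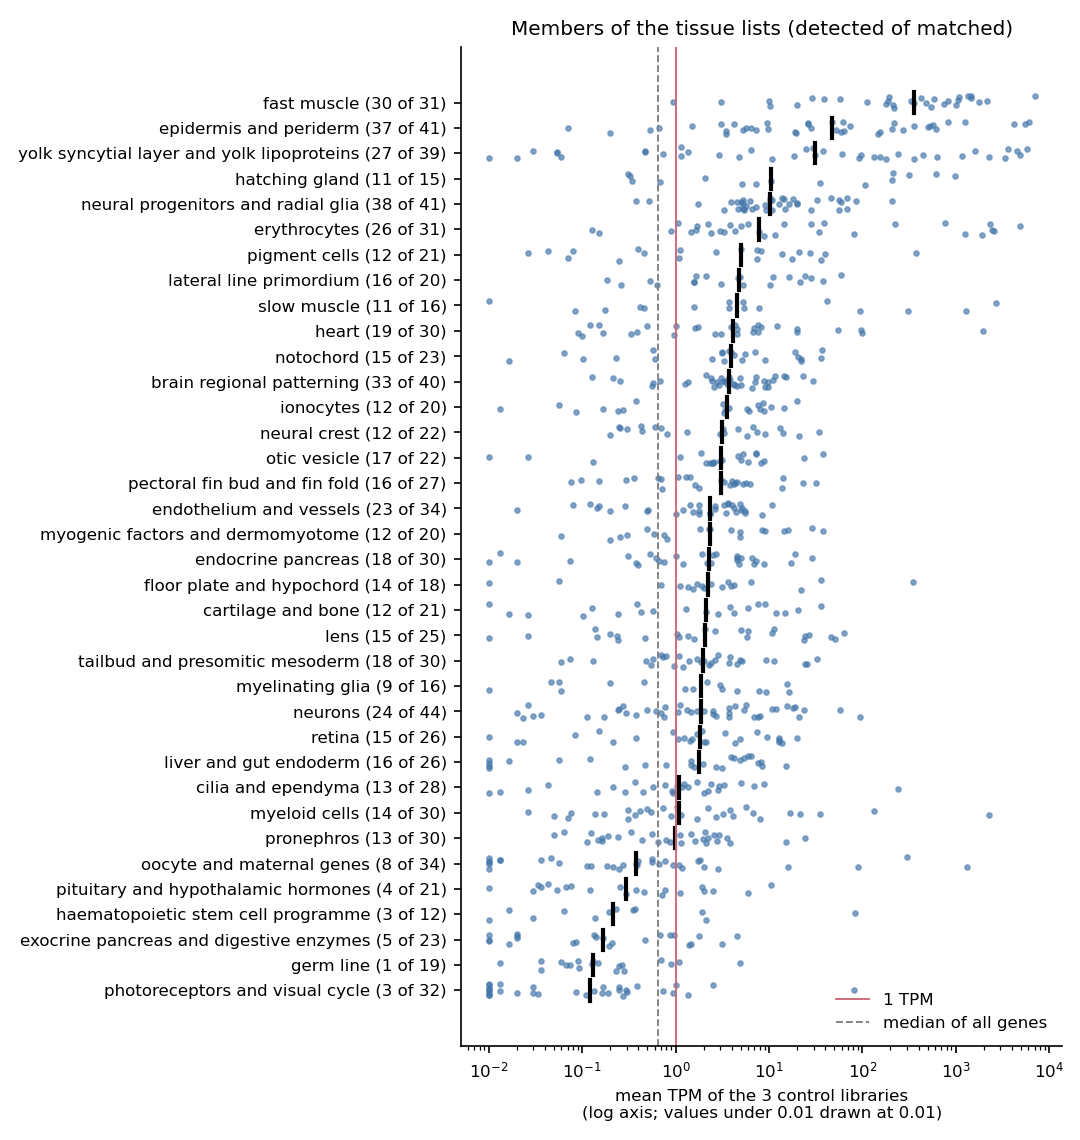
Mean TPM over the 3 control libraries (log axis) of each member of 36 tissue lists, ordered by median (black bar), with the number detected of those matched in brackets. The fast muscle list stands at the top with a median of 354 TPM and photoreceptors at the bottom with 0.122 TPM; the dashed line is the median of all genes, 0.653 TPM.

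Muscle genes led the lists. In the fast muscle list 30 of 31 members reached 1 TPM in all 3 libraries, 23 exceeded 100 TPM, and the median was 548 TPM in control 2, against 356 and 322 TPM in controls 1 and 3. The member not detected in all 3 was ryr1b, a calcium release channel with a very long transcript, at 0.75, 1.43 and 0.64 TPM. Behind actc1b stood mylpfa, a fast myosin light chain, at 1958, 2566 and 1985 TPM, tpma, a tropomyosin, at 1611, 1851 and 1856 TPM, and mylz3, another light chain, at 1461, 1506 and 1448 TPM. The list of slow muscle had a median of 4.55 TPM, with 11 of 16 detected, and 60.5% of its sum came from the light chain gene myl10 at 2887, 2516 and 2709 TPM. The slow myosin heavy chain smyhc1 had 81.1, 115.9 and 85.6 TPM, and 5 members, ryr1a, tnnt1, mybpc1, sox6 and smyhc3, were not detected in all 3, of which smyhc3 had no count.

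Factors that direct muscle formation were lower than the contractile genes they precede. In the list of myogenic factors and dermomyotome 12 of 20 were detected, with a median of 2.32 TPM. The highest were six1b at 38.9, 40.8 and 34.4 TPM, myog, the differentiation factor myogenin, at 25.9, 40.4 and 20.2 TPM, meox1 at 14.7, 19.3 and 14.3 TPM and myod1 at 12.4, 18.4 and 12.2 TPM. The heart list had 19 of 30 detected, and 84.2% of its sum came from actc1a, which is also an actin of striated muscle, at 1856, 2247 and 1821 TPM. Cardiac myosin light chains were clearly measured, with cmlc1 at 95.4, 85.7 and 108.8 TPM and myl7 at 52.1, 60.5 and 50.5 TPM. The tailbud and presomitic mesoderm list had 18 of 30 detected, led by the Hairy-related genes her15.1 at 31.0, 35.3 and 32.6 TPM and her12 at 22.7, 31.1 and 22.2 TPM.

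Skin, yolk layer and hatching gland followed muscle in rank. The epidermis and periderm list had 37 of 41 members detected and a median of 47.1 TPM, and besides the keratins it was led by icn, an S100-type calcium-binding protein, at 1274, 1309 and 1177 TPM. The 4 members that did not reach 1 TPM in all 3 were dsc2l, itgb4, krt93 and col17a1a, of which the last 3 stayed below 1 TPM in every library. The list of yolk syncytial layer and yolk lipoproteins had 27 of 39 detected and the highest sum of all lists, 30255 TPM in control 2 and 30576 and 28906 TPM in controls 1 and 3. It was led by afp4, apoa1a, fabp1b.1, a fatty acid carrier, and apoa1b. The hatching gland list had 11 of 15 detected, with the hatching enzyme he1a, which digests the egg envelope, at 970, 999 and 977 TPM, he1b at 563, 791 and 499.9 TPM, and the cathepsin ctslb at 304, 366 and 276 TPM. Its 4 other members, cpa4, ctsl.1, zgc:193725 and gsc, did not reach 1 TPM in all 3, and gsc had 0.33, 0.25 and 0.35 TPM. Ionocytes, the ion-transporting cells of the skin, had 12 of 20 members detected, led by the proton pump subunits atp6v1ab at 16.3, 30.03 and 13.1 TPM and atp6v1aa at 11.04, 23.3 and 9.62 TPM.

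Genes of neural progenitors stood above those of mature neurons. The list of neural progenitors and radial glia had 38 of 41 members detected with a median of 9.56, 14.1 and 8.07 TPM in controls 1, 2 and 3, and the list of neurons had 24 of 44 detected with a median of 1.85 TPM over the means. The progenitor list was led by fabp7a, a lipid carrier of radial glia, at 193, 259 and 178 TPM, sox3 at 76.6, 115.5 and 61.5 TPM, hmgb3a at 49.9, 113.4 and 43.5 TPM and her9 at 64.9, 83.4 and 56.4 TPM. The 3 not detected were notch1a, notch3 and pax6b, and notch1a held 4.01 TPM in control 2 against 0.77 and 0.44 TPM in controls 1 and 3. Neurons were led by tubb5, a tubulin, at 77.9, 139.2 and 68.1 TPM, gap43, a growth cone protein, at 52.4, 62.1 and 57.6 TPM, stmn2b at 20.4, 28.8 and 22.3 TPM and gng3 at 20.2, 25.3 and 17.6 TPM.

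The lists of brain regions, otic vesicle, lateral line primordium, retina and lens had between 57.7% and 82.5% of their members detected. Brain regional patterning had 33 of 40 detected with a median of 3.71 TPM and no member above 100 TPM, led by irx3a at 25.7, 41.4 and 22.0 TPM, dlx5a at 21.3, 25.9 and 21.9 TPM and six3b at 14.8, 18.2 and 12.2 TPM. All 40 of its members were highest in control 2. This was not particular to the list, since all 34 members of the endothelium list and all 22 of the neural crest list were too. In the lens list 11 of 25 were. The share over all genes was not taken. The otic vesicle list had 17 of 22 detected, led by six1b, dlx3b at 24.0, 28.8 and 19.3 TPM, dlx4b and starmaker (stm), an otolith protein, at 7.25, 11.02 and 6.36 TPM. The lateral line primordium list had 16 of 20 detected, led by the adhesion protein epcam, which had 98.3 TPM in control 2 against 42.8 and 34.8 TPM in controls 1 and 3. The retina list had 15 of 26 detected, with mab21l2 at 18.1, 24.7 and 16.7 TPM and the retinoic acid enzyme aldh1a2 at 12.1, 19.5 and 9.43 TPM. The lens list had 15 of 25 detected and a sum of 271 TPM in control 2 against 285 and 300.4 TPM in controls 1 and 3, led by the beta-crystallins crybb1 at 61.6, 54.9 and 74.8 TPM and cryba4 at 54.3, 44.6 and 53.6 TPM.

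Neural crest and its derivatives gave intermediate levels. The neural crest list had 12 of 22 detected, led by twist1a at 32.0, 38.5 and 31.9 TPM, mycn at 17.0, 32.1 and 14.3 TPM and foxd3, a factor of premigratory crest, at 12.8, 17.9 and 11.9 TPM. Pigment cells had 12 of 21 detected, and 66.6% of the sum came from paics, a purine synthesis enzyme that other cells also use, at 361, 417 and 352 TPM. Melanin synthesis was represented by tyrp1b at 25.1, 35.0 and 21.6 TPM. Myelinating glia had 9 of 16 detected, led by cnp at 14.4, 22.8 and 12.3 TPM and mbpb at 12.9, 22.1 and 11.6 TPM, while mag, a myelin glycoprotein, had no count. Cartilage and bone had 12 of 21 detected, led by the collagen gene col2a1a at 32.7, 45.0 and 31.5 TPM, which also belongs to the notochord and floor plate lists.

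Axial structures were measured at modest levels. The notochord list had 15 of 23 detected with a median of 3.90 TPM, led by col9a1b at 31.5, 55.7 and 23.5 TPM, col2a1a and ntd5 at 17.9, 31.5 and 16.9 TPM. Its sum was 302 TPM in control 2 against 179 and 147 TPM in controls 1 and 3. The floor plate and hypochord list had 14 of 18 detected, led by mdka, the growth factor midkine, at 313, 441 and 281 TPM. Its members vegfc, ntn1b, scospondin and spon1a did not reach 1 TPM in all 3, and spon1a had no count. Pectoral fin bud and fin fold had 16 of 27 detected, with msx1b at 30.7, 39.9 and 24.5 TPM. The cilia list had 13 of 28 detected and drew most of its sum from the tubulin gene tuba1c at 249, 237 and 242 TPM, and the next member, capsla, had 10.4, 7.51 and 8.63 TPM.

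Blood, vessels and internal organs covered the full range. The erythrocyte list had 26 of 31 detected, and its 5 exceptions were hbae1, epb41b, rhag, klf1 and slc25a37. Of these klf1, an erythroid transcription factor, had 0.02, 0.37 and 0.06 TPM while its highest globin, hbae1.3, averaged 4813 TPM. Endothelium and vessels had 23 of 34 detected with no member above 10.8 TPM on average, led by etv2, the early endothelial factor, at 10.4, 12.9 and 9.07 TPM and clec14a at 7.32, 11.2 and 6.5 TPM. Myeloid cells had 14 of 30 detected, where apoc1, shared with the yolk list, made up most of the sum, and lysozyme (lyz) had 33.9, 38.9 and 32.5 TPM. The pronephros list had 13 of 30 detected, led by the sodium pump subunit atp1a1a.4 at 20.5, 32.8 and 18.9 TPM.

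Endodermal organs were represented by hormones and by few enzymes. The endocrine pancreas list had 18 of 30 detected, with insulin (ins) at 30.3, 27.9 and 29.2 TPM, the somatostatin genes sst1.2 at 17.8, 22.5 and 17.4 TPM and sst2 at 17.46, 18.96 and 14.8 TPM. The values of ins differed little between the libraries. Liver and gut endoderm had 16 of 26 detected, led by cdh17 at 13.9, 19.5 and 12.1 TPM, which the pronephros list also holds, and fabp10a, sox32 and tm4sf5 had no count. Exocrine pancreas and digestive enzymes had 5 of 23 detected, among them ptf1a, try, prss59.1 and fabp6. The level of ptf1a, a factor of the pancreatic primordium, was 3.16, 3.46 and 2.82 TPM.

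Few members of the lists of photoreceptors, stem cells of blood and pituitary hormones were detected. The photoreceptor and visual cycle list had 3 of 32 detected. They were rbp4l, which held most of the list's sum, at 83.9, 68.4 and 89.3 TPM, rpe65a at 2.46, 2.4 and 2.77 TPM and gngt2b at 1.18, 1.47 and 1.48 TPM. In the 4 tested paralog pairs that touch this list, the copy left out of it reached 1 TPM in all 3 libraries. Left out were rpe65b at 14.55, 15.74 and 11.26 TPM and gngt2a at 3.05, 2.89 and 1.7 TPM. So were rcvrnb at 2.45, 4 and 1.44 TPM and rlbp1a at 1.21, 1.58 and 1.01 TPM. The number detected therefore depends in part on which copy was listed. The opsin genes opn1lw1, opn1mw2 and opn1sw1 and the rod factor nrl were among its 6 members without a count. The haematopoietic stem cell programme had 3 of 12 detected, meis1b at 77.8, 115.3 and 60.1 TPM, tcf21 and myb. Pituitary and hypothalamic hormones had 4 of 21 detected, agrp at 10.5, 9.64 and 11.1 TPM, pitx3, pomcb and sst1.1.

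Germ cell and egg genes were low as well. The germ line list had 1 of 19 detected, the chemokine receptor cxcr4b, which is also used by other migrating cells, at 4.07, 7.14 and 3.50 TPM, and without control 3 the number detected was 2. Its defining members nanos3 and ddx4, named after their values were seen, had 0.34, 1.76 and 0.56 TPM and 0.54, 1.13 and 0.42 TPM in controls 1, 2 and 3. Oocyte and maternal genes had 8 of 34 detected, and the top members, the RNA-binding protein genes ybx1 at 1211, 1537 and 1200 TPM and khdrbs1a at 264, 439 and 208 TPM, are in general use. The 8 zp genes of the list, which encode proteins of the egg coat, reached at most 3.62 TPM in any library, the value of zp2.1 in control 3.

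Across the lists control 2 had the highest sum in 30 of 36 and the lowest in 3. The 3 lowest were erythrocytes, lens and photoreceptors, with ratios of control 2 to the mean of controls 1 and 3 of 0.746, 0.926 and 0.830. At the other end stood the germ line at 1.97, the notochord at 1.85 and ionocytes at 1.79. The germ line ratio rests on small sums, 14.1 TPM in control 2 and 7.64 and 6.67 TPM in controls 1 and 3. Whether the ratios of the lists follow the trend with length and level given above was not tested. In 10 lists more than 50% of the summed level came from the top gene.

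Hox genes, which assign position along the body axis and lie in 7 clusters in zebrafish, were detected widely and at low levels. Of 49 genes 42 reached 1 TPM in all 3 libraries, and the median was 4.30 TPM with no gene above 20.6 TPM on average. The highest were hoxb1b, a hindbrain gene, at 19.3, 24.8 and 17.8 TPM, hoxc3a at 16.5, 20.5 and 14.7 TPM and hoxb6a at 15.4, 22.7 and 12.6 TPM. Control 2 was the highest library for 47 of the 49. It was also the highest for 43 of 44 members of the neuron list and for 11 of 25 of the lens list, so this is not particular to hox genes. By cluster, hoxba had the largest sum, 114.9 TPM in control 2 and 71.3 and 62.8 TPM in controls 1 and 3, with 11 of 11 genes detected. The hoxcb cluster had the smallest, 6.17 TPM in control 2 and 3.37 and 2.65 TPM in controls 1 and 3, and none of its 4 genes was detected in all 3. Genes of paralog groups 1 to 8, used from the hindbrain to the trunk, had a median of 4.88 TPM with 24 of 26 detected. Those of groups 9 to 13, used in the posterior body, had a median of 2.92 TPM with 18 of 23 detected.

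Paralog dominance was tested over pairs of genes whose symbols differ in a final a or b. There were 2623 pairs by name, of which 1778 had a mean sum of at least 1 TPM and were tested. A copy was called higher when its level exceeded that of the other by more than 2-fold in limma's test against that threshold, with p adjusted over the 1778 pairs, on log2 of TPM + 0.1, which understates ratios of low genes. Of the pairs tested, 1129 (63.5%) passed, 606 (34.1%) with copy a higher and 523 (29.4%) with copy b higher. In 80 pairs (4.5%) the 95% interval of the ratio lay within 1.5-fold either way, so the copies were near equal. In the remaining 569 neither was shown. The same copy was higher in every library in 1636 pairs (92.0%), and 995 of the 1129 calls were kept when any 1 library was left out. The number of calls was 1184 without control 2.

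The higher copy of a pair held a median of 83.0% of the summed TPM, a share that by definition cannot fall below an equal split. The median size of the log2 ratio was 2.16. In 37 pairs the lower copy had no count. Each was placed at the smaller of its fitted log2 ratio and a log2 ratio of counts that takes the limit of 3. All of these pairs still lay above that median, at 3.49 or more, and the median stayed at 2.16. The ratio of counts is not corrected for the length of the copies. In 378 pairs the fitted ratio reached 16-fold or log2 4. In 861 pairs 1 copy averaged under 1 TPM. Among the 827 pairs in which both copies averaged at least 1 TPM the higher copy held a median of 69.7%, the median log2 size was 1.21, and 353 (42.7%) passed the test. The share of calls was similar at all levels. It was 63.6% of pairs summing to 1 to 3 TPM, 65.1% at 3 to 10, 61.3% at 10 to 30, 61.9% at 30 to 100 and 64.6% above 100 TPM.

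**Figure D5:**
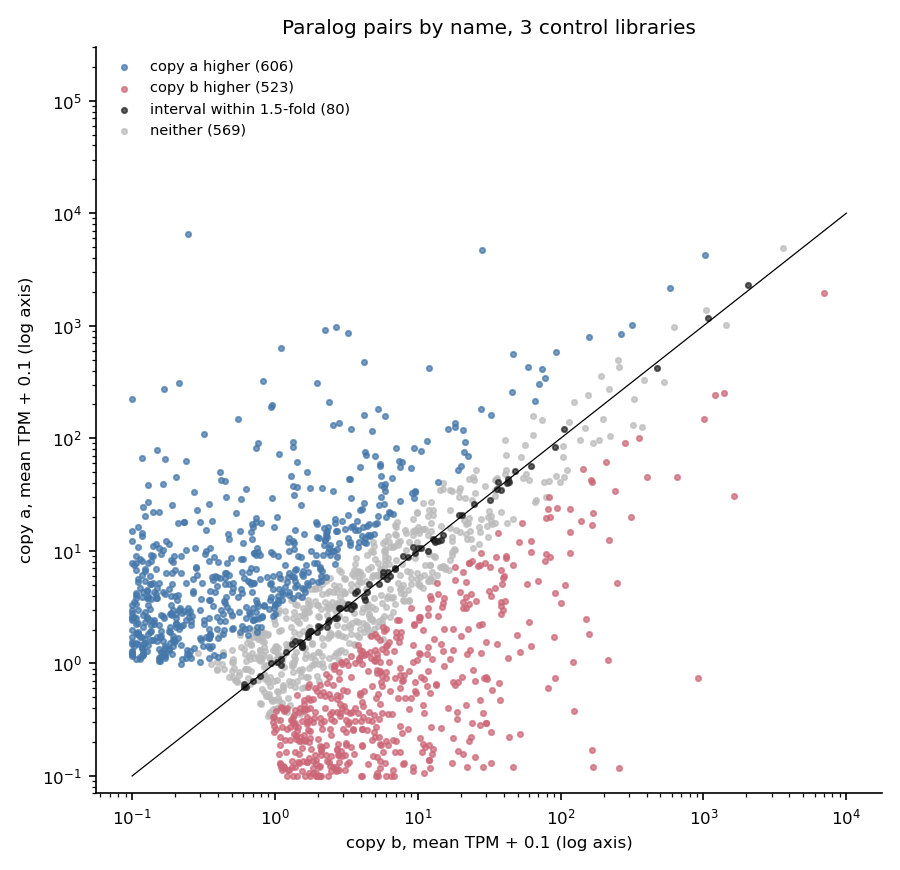
Mean TPM + 0.1 of copy a (vertical, log axis) against copy b (horizontal, log axis) for 1778 paralog pairs in the 3 control libraries, coloured by call: 606 with copy a higher, 523 with copy b higher, 80 within 1.5-fold and 569 in neither state. The called pairs form broad wings at all levels, on both sides of the line of equal levels.

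The most abundant pairs ranged from near equality to a copy with almost no reads. In actc1a/actc1b copy a had 1856, 2247 and 1821 TPM and copy b had 6635, 7920 and 6439 TPM in controls 1, 2 and 3, a log2 ratio of -1.83 ± 0.13 (SE, adjusted p = 0.00223). In mylpfa/mylpfb copy a had 1958, 2566 and 1985 TPM and copy b 557, 689 and 496 TPM (log2 1.90 ± 0.13, adjusted p = 0.00187), and in ppiaa/ppiab copy a had 4199, 4211 and 4355 TPM and copy b 1025, 944 and 1128 TPM (2.05 ± 0.13, adjusted p = 0.00117). The groups of 3 values did not overlap in any of these pairs. In rps8a/rps8b copy a had 6743, 5769 and 7081 TPM and copy b had 0, 2 and 2 counts (adjusted p = 3.93e-05). In faua/faub copy a had 5063, 3808 and 5147 TPM and copy b 24.96, 30.9 and 28.4 TPM (log2 7.37 ± 0.19, adjusted p = 3.91e-05).

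Other abundant pairs were shared between copies. In rpl5a/rpl5b, a large-subunit protein, copy a had 2204, 2291 and 2435 TPM and copy b 1995, 2007 and 2112 TPM, with a log2 ratio of 0.18 and an interval of -0.16 to 0.52. In cirbpa/cirbpb, a cold-inducible RNA-binding protein, copy a had 1196, 1246 and 1053 TPM and copy b 1006, 1334 and 887 TPM (0.13, interval -0.27 to 0.53), and copy b was the higher in control 2. Both intervals lay within 1.5-fold. Less decided were apoa1a/apoa1b (0.43, interval 0.06 to 0.79), ckma/ckmb (-0.51, -0.86 to -0.16), the muscle creatine kinases, and hmgb2a/hmgb2b (0.36, -0.04 to 0.77), in which neither a 2-fold difference nor near equality was shown. For ckma/ckmb copy a had 913, 1248 and 857 TPM and copy b 1305, 1883 and 1147 TPM, with copy b higher in every library.

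The largest ratios with copy a higher, among pairs summing to at least 10 TPM, were in pairs whose copy b averaged about 1 TPM or less. In ctsba/ctsbb, a cathepsin, copy a had 206, 306 and 156 TPM and copy b had no count. In desma/desmb, the muscle intermediate filament desmin, copy a had 249, 323 and 250.4 TPM and copy b at most 0.11 TPM, and in ldhba/ldhbb, a lactate dehydrogenase, copy a had 285, 425 and 212 TPM and copy b at most 0.20 TPM. Similar splits were found in npm1a/npm1b (289, 434 and 250.1 TPM for copy a and at most 1.92 TPM for copy b), hmga1a/hmga1b (576, 827 and 493 TPM, at most 1.55 TPM), ndufs8a/ndufs8b (65.0, 73.8 and 59.9 TPM, at most 0.05 TPM) and rad21a/rad21b (63.7, 112.3 and 58.3 TPM, at most 0.10 TPM). These genes encode nucleophosmin, a chromatin protein, a subunit of respiratory complex I and a subunit of cohesin. Adjusted p was 3.91e-05 for each of these pairs except npm1a/npm1b, where it was 0.000228.

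Ratios of similar size were found with copy b higher. In polr2ea/polr2eb, a subunit shared by nuclear RNA polymerases, copy a had at most 0.05 TPM and copy b 265, 245 and 257 TPM. In slc25a3a/slc25a3b, the mitochondrial phosphate carrier, copy a had 0.58, 0.75 and 0.58 TPM and copy b 899.9, 931 and 909 TPM (log2 -10.28 ± 0.14), and in tkta/tktb, transketolase, copy a had at most 0.04 TPM and copy b 149, 239 and 117 TPM. The same form held for sumo2a/sumo2b, a ubiquitin-like modifier (at most 0.16 TPM for copy a, 159, 204 and 137 TPM for copy b), and for adh8a/adh8b, an alcohol dehydrogenase (0.24, 0.48 and 0.11 TPM, then 118, 153 and 99.3 TPM). It held as well for wasf3a/wasf3b, an actin regulator, with 44.1, 51.3 and 43.5 TPM for copy b, for tmeff1a/tmeff1b with 29.8, 44.2 and 23.9 TPM and for tecra/tecrb with 25.4, 40.4 and 20.1 TPM. Copy a of those 3 stayed at or below 0.06 TPM. Adjusted p was 3.91e-05 for each of these pairs except sumo2a/sumo2b, where it was 7.49e-05.

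Of the pairs summing to at least 10 TPM, 6 with ratios closest to equality were taken. In gnb1a/gnb1b, a G protein beta subunit, copy a had 11.2, 17.3 and 9.42 TPM and copy b 10.6, 18.2 and 8.95 TPM (log2 0.03, interval -0.33 to 0.38). In map7d1a/map7d1b, a microtubule-associated protein, copy a had 6.99, 13.04 and 5.95 TPM and copy b 7.30, 11.9 and 6.2 TPM (0.00, -0.36 to 0.36). Both pairs followed the library: in each, both copies were highest in control 2. The others were lrata/lratb, gmppaa/gmppab, fam98a/fam98b and tra2a/tra2b, of which the last 2 carry letters that also name separate genes in the gene name table and may not be copies of this duplication. Among the 694 pairs summing to at least 10 TPM the higher copy changed between libraries in 37, the most abundant being cirbpa/cirbpb, puf60a/puf60b, ywhaqa/ywhaqb and tra2a/tra2b.

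Classes are described here by their counts. Of the 18 pairs of sarcomere and muscle genes 13 (72.2%) were called, and of 46 solute carrier pairs 36 (78.3%), against 63.5% of all pairs. Of 77 pairs of developmental transcription factors 41 (53.2%) were called, with a median log2 size of 1.65, and of 11 pairs of hox genes 4 were called. The called hox pairs were hoxa11a/hoxa11b and hoxb1a/hoxb1b with copy b higher and hoxb8a/hoxb8b and hoxc6a/hoxc6b with copy a higher. Hoxb1a had 2.17, 6.61 and 1.42 TPM and hoxb1b 19.3, 24.8 and 17.8 TPM (log2 -2.85 ± 0.36, adjusted p = 0.00503). Of the 8 pairs of ubiquitin class genes 3 were called and of 5 proteasome pairs 1.

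Pairs of tissue markers follow, named after their values were seen. In pax6a/pax6b, eye and brain factors, copy a had 10.5, 18.5 and 9.18 TPM and copy b 0.22, 0.80 and 0.12 TPM (log2 4.94 ± 0.24, adjusted p = 0.000132). In fabp7a/fabp7b copy a had 193, 259 and 178 TPM and copy b 2.04, 2.86 and 1.96 TPM (6.46 ± 0.13, adjusted p = 3.91e-05), and in sox19a/sox19b copy a had 47.4, 84.3 and 45.9 TPM and copy b 4.34, 8.65 and 3.1 TPM (3.51 ± 0.17, adjusted p = 0.000171). These are 3 of the 6 calls among the 12 pairs that touch the neural progenitor list, and in the fast muscle list 6 of 11 pairs were called, against 63.5% of all pairs. There mybpha/mybphb, a myosin-binding protein, had 0.94, 1.35 and 0.65 TPM for copy a and 189, 288 and 167 TPM for copy b (-7.65 ± 0.14, adjusted p = 3.91e-05), while the skeletal actins acta1a/acta1b had 356, 548 and 365 TPM for copy a and 449, 578 and 401 TPM for copy b (-0.18, interval -0.55 to 0.19). Of the 11 pairs that touch the neuron list 10 were called, against the same 63.5%, such as stmn1a/stmn1b with 120.7, 153.8 and 101.5 TPM for copy a and 15.08, 25.6 and 14.1 TPM for copy b (2.81 ± 0.15, adjusted p = 0.000293).

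The steadiness of single genes over the libraries varied widely. Among genes of at least 10 mean TPM the median SD of log2(TPM + 0.1) was 0.28. The steadiest were rps27.1 at 3913, 3916 and 3915 TPM in controls 1, 2 and 3, sox21a, a neural factor, at 46.0, 46.2 and 46.0 TPM, mgst1.2, sult6b1 and ebag9. The least steady named gene was rab10, a vesicle traffic GTPase, with 48.4 TPM in control 2 against 15.8 and 8.41 TPM in controls 1 and 3. The other 4 of the 5 least steady genes have no functional name, among them zgc:194101, with 29.7 TPM in control 2 against 0 and 4.2 TPM in controls 1 and 3, and LOC103910031, with 4063 TPM in control 2 against 816 and 647 TPM in controls 1 and 3.

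The genes that the knockdowns of the series target, and dohh, which no sample label names, had these baseline levels. The translation factor gene eif5a had 673, 859 and 573 TPM and its paralog eif5a2 had 59.4, 137.0 and 44.1 TPM in controls 1, 2 and 3, so that eif5a2 gave 13.8% of their sum in control 2 and 8.11% and 7.15% in controls 1 and 3. The enzymes of hypusine formation were lower, dhps at 4.69, 8.34 and 4.93 TPM and dohh at 44.8, 50.8 and 43.3 TPM.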

How the data were processed

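Polyadenylated RNA of the 3 control libraries, grouped by label, was analysed. Per the file headers, the authors deposited TPM and expected counts for 24614 genes. The expected counts are estimates, of which 91.7% to 93.9% per library were whole to within 1e-06, and they divide reads between similar copies, so the split of near-identical copies is uncertain. The build was GRCz11, per the submitters' processing notes, and no source used here gives the aligner or the counter. The deposited table of the authors' fold changes was not used.

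Other gene names came from RefSeq (assembly GRCz12tu, names alone), in which 22941 of the IDs were found. Of 923 marker entries 38 matched no gene and 51 matched by another name. Detection means at least 1 TPM in each of the 3 libraries. The members, lists and tests were chosen with earlier results of these data known, and class patterns were corrected for a few symbols after levels had been seen.

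Pairs were tested with limma 3.58.1 (treat, 2-fold, R 4.3.3) on log2 ratios of TPM + 0.1, for mean sums of at least 1 TPM, with Benjamini-Hochberg adjustment at 0.05, and the script was tested on simulated data. Errors, intervals and p-values use limma's moderated variance, which draws the variance of each pair toward that of all pairs tested. Of the pairs by name, 144 carry letters that also name other genes. TMM factors came from edgeR 4.0.16. Alternatives were other thresholds, pseudocounts and scales and leaving out each library.

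Named by rule were the 20 highest genes, the 3 highest of each class considered and the 4 highest of each list considered. Any 5 or fewer detected or undetected members of a list were named too, as were the targeted genes and dohh. Among pairs the rule took the 10 highest sums and, of those summing to at least 10 TPM, the 8 largest ratios each way, the 6 closest to equal and 4 whose higher copy changed, and among genes the 5 most and 5 least variable. The text gives values for part of these. Genes outside the rule were named after their values were seen. Not every gene that the rule names is reported here.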

Additional observations from a re-analysis of the deposited data

How the results depend on the processing

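The number of genes detected in all 3 libraries was 15592 at 0.1 TPM and 4863 at 5 TPM, against 9756 at 1 TPM, and leaving out 1 library gave 9789 to 10278. Tissue genes detected numbered 693 at 0.1 TPM and 267 at 5 TPM, against 497, and 502 to 516 without 1 library. The numbers detected in single lists depended on the cutoff too. Of the 36 lists, 29 were scored as moved at 5 TPM and 7 as the same. At 0.1 TPM 12 were scored as moved and 24 as the same. The endothelium list went from 23 to 2 at 5 TPM, and fast muscle from 30 to 29. At 0.1 TPM photoreceptors went from 3 to 13, the germ line from 1 to 8 and exocrine pancreas from 5 to 13. The ribosomal share was 26.8% of expected counts, against 54.3% of TPM, and 52.5% to 56.9% without 1 library. The genes holding 50% of the mean TPM numbered 62, against 148 on expected counts, 125 without the ribosomal proteins, a setting chosen after seeing the data, and 58 to 66 without 1 library. Pairs called numbered 435 when only pairs of at least 10 TPM were tested, since fewer pairs enter, and 811 with a pseudocount of 1 TPM. A 4-fold threshold left 756, a test of any difference gave 1528, expected counts gave 1122, and leaving out 1 library gave 998 to 1184. Without the pairs whose letters also name other genes, also chosen after seeing the data, 1057 of 1660 were called. Of 29 classes, 27 moved by more than the spread between libraries on expected counts and none with TMM scaling.

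No paired analysis was possible because the description covers the control group alone and compares no groups. The planned restriction to pairs of similar proteins was not run, because protein sequences were not used here. With 3 libraries, of which 1 stood apart, each error rests on few values. For gene pairs it rests also on the spread shared over all pairs tested. Depth limits genes of a few counts.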
